A study of Mus musculus with 6 samples.

Results

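The platelet-derived growth factor (PDGF) genes described here are the receptors Pdgfra and Pdgfrb and the ligands Pdgfa, Pdgfb and Pdgfc. They were chosen by their gene symbols, with earlier results of these data known. All 5 had a row in each of 6 deposited tables of 14701 genes, and all 5 passed the low-count filter that left 11423 genes to test. RNA came from IEC 4.1, a single mouse cell line labelled as intestinal epithelium. Replicates 2, 3 and 4 of the controls had no interferon-gamma. Replicates 1, 2 and 4 of the treated cells had 10 ng/ml of it for 6 h, so n = 3 in each group, and no genotype or other agent is named in the labels. The comparison asks how this cytokine, which activates the kinases Jak1 and Jak2, changed the RNA of each PDGF gene within 6 h.

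PDGF ligands are secreted as disulphide-linked dimers, and each dimer joins a pair of receptor tyrosine kinases at the cell surface. PDGF-A and PDGF-C act mainly through the alpha receptor, while PDGF-B binds both receptors. PDGF-A and PDGF-B have their propeptides removed by proteases such as furin, whereas PDGF-C is released with a CUB domain that must be cut off outside the cell. In the developing intestine, PDGF-A from the epithelium acts on alpha-receptor-bearing mesenchyme beneath it, and the beta receptor is typical of pericytes and smooth muscle precursors.

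Coordinates are those of GRCm38.p6 in the RefSeq annotation. Pdgfra (NCBI Gene 18595) spans chromosome 5 from 75151322 to 75198206, and Pdgfa (NCBI Gene 18590) lies on the same chromosome from 138976014 to 139000792. Pdgfb (NCBI Gene 18591) spans chromosome 15 from 79995865 to 80024614, and Pdgfc (NCBI Gene 54635) spans chromosome 3 from 81036416 to 81214040. In the deposited Pfam annotation both receptors carry immunoglobulin and protein kinase domains, and the 3 ligands share the PDGF/VEGF domain, joined to an N-terminal PDGF region in Pdgfa and Pdgfb and to a CUB domain in Pdgfc.

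RefSeq promoter windows of GRCm38.p6 were matched for 3 of the 5 members: 1 for Pdgfra, 2 for Pdgfa and 1 for Pdgfc. The 250 bases upstream of a transcript start are shown for each gene because these members moved together with interferon-gamma. They are read 5′ to 3′ on the gene's own strand, from chr5:75152001-75152250 (plus strand) for Pdgfra and chr3:81036166-81036415 (plus strand) for Pdgfc. For Pdgfa the stretch is chr5:138994945-138995194 (minus strand), at the more upstream of its 2 matched starts. The Pdgfra window and both Pdgfa windows lie inside the gene spans given above, so these starts are not the outermost ends of the annotated genes. Capitals mark GC boxes (GGGCGG on either strand).
Pdgfra: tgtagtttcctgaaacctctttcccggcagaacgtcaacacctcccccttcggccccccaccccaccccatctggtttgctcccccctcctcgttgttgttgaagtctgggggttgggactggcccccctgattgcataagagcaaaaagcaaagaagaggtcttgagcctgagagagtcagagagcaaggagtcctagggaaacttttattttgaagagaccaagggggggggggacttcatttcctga
Pdgfa: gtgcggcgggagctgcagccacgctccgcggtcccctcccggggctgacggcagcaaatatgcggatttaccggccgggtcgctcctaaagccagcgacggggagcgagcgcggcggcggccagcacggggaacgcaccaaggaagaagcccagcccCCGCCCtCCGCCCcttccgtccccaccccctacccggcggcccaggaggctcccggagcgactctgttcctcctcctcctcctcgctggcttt
Pdgfc: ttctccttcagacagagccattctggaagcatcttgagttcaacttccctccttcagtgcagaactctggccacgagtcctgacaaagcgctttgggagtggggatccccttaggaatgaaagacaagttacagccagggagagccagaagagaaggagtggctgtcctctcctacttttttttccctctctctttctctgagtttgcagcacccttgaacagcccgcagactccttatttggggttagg
Both strands were searched for TTCNNNGAA (the gamma-activated site, GAS), for GAAA followed after any 2 bases by GAAA (the core of the interferon-stimulated response element), for CCAAT (the box bound by NF-Y), for GGGCGG (the GC box) and for TATAAA (the TATA box). Each was counted on its own, whether or not it overlapped another. Only the GC box was found, with 2 matches in the Pdgfa window printed above and 1 in its other window (chr5:138994282-138994531). Of 32851 windows of the same length, 32.7% held a GC box, 7.02% a GAS, 2.98% the response element core, 33.8% CCAAT and 12.4% TATAAA. The Pdgfa windows were rich in G and C, at 72.4% and 66.4%, against 54.4% for Pdgfra, 50.8% for Pdgfc and a median of 52.4% over all windows. The window printed for Pdgfa holds 28 CpG dinucleotides, against 4 for Pdgfra and 3 for Pdgfc. The motif matches describe these letters only.

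Total estimated counts ran from 17490689 to 18678543 per library. The interferon-gamma check genes Irf1, Gbp2, Igtp, Socs1 and Cd274 rose, by 3.01 to 8.80 on the log2 scale. With edgeR's quasi-likelihood test at an adjusted p under 0.05, 2278 genes rose and 2069 fell, and on total counts without scaling factors 1644 rose and 3124 fell. No gene of the tables was at 0 in every control, so genes silent in controls have no values here. Nothing in the labels says that replicates came from separate cultures, so p-values measure the spread between these samples, which may be technical. Epithelial markers go against the label: of 14 listed, 9 had values, none was tested, and none exceeded 0.58 TPM (transcript abundance scaled for gene length and library size) in any sample. Their summed level was 0.82 to 1.34 TPM in controls and 0.64 to 0.91 TPM in treated samples, and E-cadherin (Cdh1) reached 0.02 TPM and villin (Vil1) 0.03 TPM at most. Epcam and Cdx2 were not analysed here.

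All 5 PDGF members fell with interferon-gamma, by 30.4% to 44.7%, with no overlap between the groups in any of them. Of all 11423 genes tested, 38.1% passed the threshold in either direction, 18.1% fell past the threshold, and in 23.3% all 3 treated samples lay below all 3 controls. The median log2 fold change of the 5 members was -0.61, beside 0.01 over all genes tested. A called fall at least as large as that of the least changed member, Pdgfc, was seen in 485 genes, 4.25% of those tested. In bulk RNA, fewer cells expressing a gene and less of its RNA per cell cannot be told apart.

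**Figure D1:**
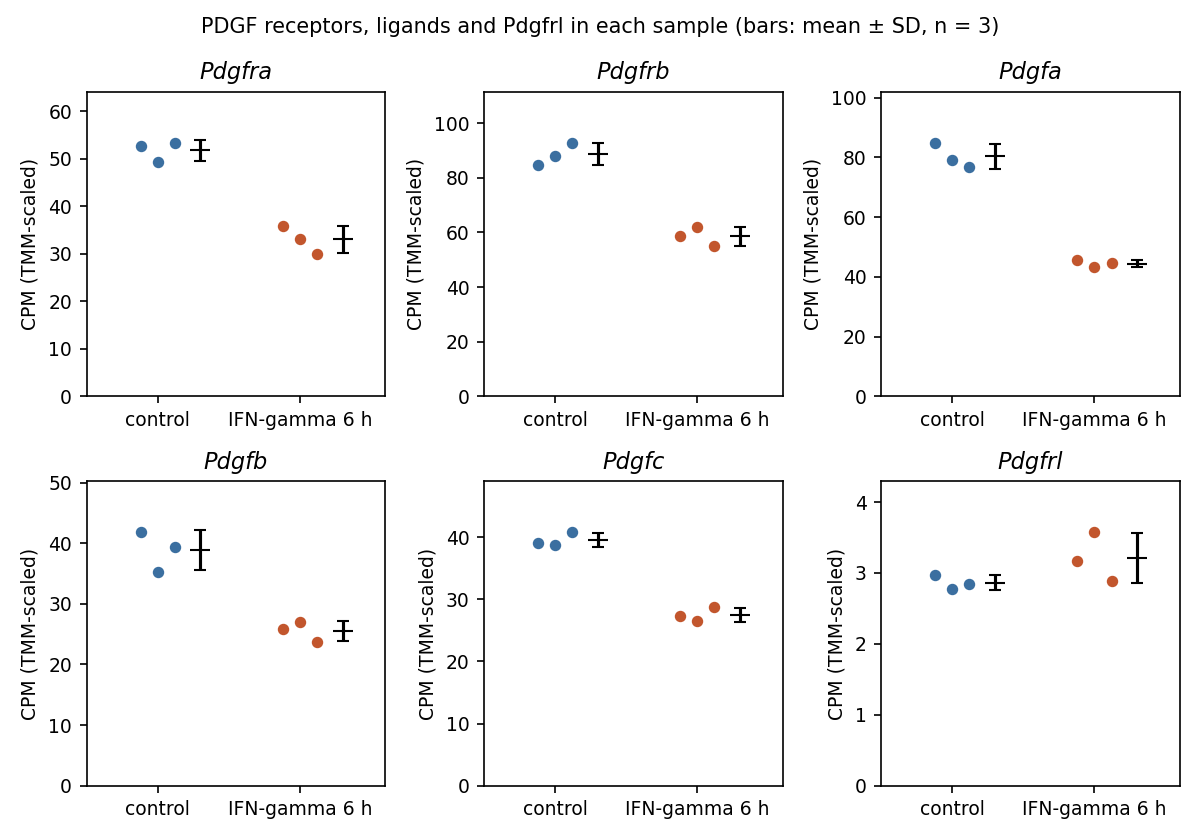
CPM (counts scaled to library size with TMM factors, y axis from 0) of the 5 PDGF members and Pdgfrl, one point per sample, with the mean ± SD of 3 samples beside each group. The treated points lie below all control points for the 5 members, and the groups overlap for Pdgfrl.

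Among the receptors, Pdgfra encodes the alpha chain, which marks many fibroblasts and their progenitors. Its level was 52.8, 49.2 and 53.3 CPM (counts scaled to library size) in control replicates 2, 3 and 4 and 35.9, 33.1 and 30.0 CPM in treated replicates 1, 2 and 4. The lowest control was well above the highest treated sample, and treated replicate 4 was the lowest. Pdgfra fell by 0.65 ± 0.082 (log2, with the SE from 3 against 3 replicates, edgeR adjusted p = 1.23e-07), a decrease from 51.8 ± 2.22 to 33.0 ± 2.93 CPM (mean ± SD). Of the tested genes, 357 had a lower log2 fold change.

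Pdgfrb (NCBI Gene 18596, chromosome 18 from 61045127 to 61085067) encodes the beta chain, the receptor through which PDGF-B recruits pericytes. It stood at 84.8, 88.1 and 92.8 CPM in controls and at 58.6, 62.0 and 55.1 CPM in treated samples. Again every treated sample was below every control, and treated replicate 4 was lowest. The fall was 0.60 ± 0.062 on the log2 scale (edgeR adjusted p = 5.11e-08), from 88.6 ± 4.01 to 58.6 ± 3.47 CPM.

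The balance between the receptors was set by length-scaled levels. The ratio of Pdgfra to Pdgfrb TPM was 0.508, 0.460 and 0.465 in controls and 0.490, 0.436 and 0.440 in treated samples. These ranges overlapped, and the log2 ratio differed by -0.07 ± 0.070 (± SE) with an exact two-sided permutation p of 0.4, where 3 samples against 3 can reach no lower than 0.1.

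Pdgfa, the ligand whose homodimer signals through the alpha receptor, changed most of the 5. Controls held 84.9, 79.2 and 76.9 CPM and treated samples 45.6, 43.2 and 44.6 CPM. The treated samples were close together and far under the lowest control. Pdgfa fell by 0.85 ± 0.048 on the log2 scale (edgeR adjusted p = 1.49e-10), from 80.3 ± 4.15 to 44.4 ± 1.23 CPM, and 186 of the tested genes had a lower log2 fold change.

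Pdgfb, which encodes the ligand of both receptors, had 41.85, 35.3 and 39.4 CPM in controls and 25.9, 26.9 and 23.7 CPM in treated samples. Control replicate 3 was the lowest control and still above every treated sample. The fall was 0.61 ± 0.089 on the log2 scale (edgeR adjusted p = 1.11e-06), from 38.9 ± 3.30 to 25.5 ± 1.64 CPM. Pdgfb counts were not all whole numbers, which can arise when reads are divided between features, so its level may be less certain. They lay close to whole numbers, at 787.01, 663.07 and 746.99 in controls and 466, 488.93 and 403.01 in treated samples. The other 4 members had whole counts in every sample.

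Pdgfc, the ligand that needs removal of its CUB domain, had 39.1, 38.7 and 40.8 CPM in controls and 27.3, 26.5 and 28.8 CPM in treated samples. Both groups were tight and well separated. Pdgfc fell by 0.52 ± 0.042 on the log2 scale (edgeR adjusted p = 1.13e-06), from 39.5 ± 1.12 to 27.5 ± 1.15 CPM, and 570 tested genes had a lower log2 fold change.

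**Figure D2:**
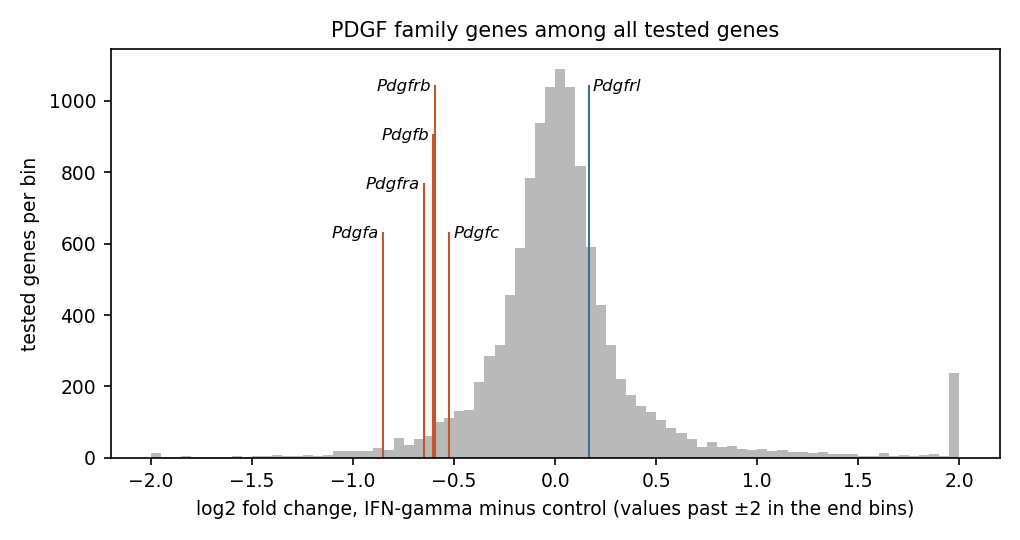
Histogram of log2 fold changes (x axis, interferon-gamma minus control; y axis, number of tested genes per bin) of 11423 genes, with lines at the PDGF members and Pdgfrl. The 5 members sit between -0.85 and -0.52, in the left flank, and Pdgfrl at 0.17.

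The ligands did not all fall by the same amount in these samples, but the design limits what can be said of that. The ratio of Pdgfa to Pdgfc TPM was 3.89, 3.43 and 3.29 in controls and 2.93, 2.98 and 2.77 in treated samples. The 2 groups did not overlap, and the log2 ratio was lower by 0.29 with interferon-gamma (difference -0.29 ± 0.080). Pdgfa was the most and Pdgfc the least changed of the 5 members, so a lower ratio follows from their falls and is no separate result. The exact two-sided permutation p was 0.1, the lowest these group sizes allow, and 0.2 after Benjamini-Hochberg adjustment over the 2 ratios tested.

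A further pair of genes belongs to the family by name. Pdgfd, the other CUB-domain ligand and a beta receptor agonist, had 1 count in all controls together and 1 in all treated samples, so no fold is given. Pdgfrl, a receptor-like gene with only an immunoglobulin domain in the deposited Pfam annotation, had 2.98, 2.77 and 2.85 CPM in controls and 3.17, 3.58 and 2.88 CPM in treated samples. The groups overlapped, its log2 fold change was 0.17 (edgeR adjusted p = 0.444), and the 95% interval from limma-voom ran from -0.18 to 0.51. Its lower end lies above the log2 fold changes of the 5 members.

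On the length-scaled TPM scale the order of levels was the same in both groups: Pdgfa, Pdgfrb, Pdgfb, Pdgfc and Pdgfra. Control means ± SD were 77.8 ± 1.83 TPM for Pdgfa, 29.0 ± 2.16 for Pdgfrb, 26.0 ± 1.96 for Pdgfb, 22.1 ± 1.48 for Pdgfc and 13.8 ± 0.501 for Pdgfra. Treated means were 40.0 ± 2.09, 17.9 ± 1.08, 16.2 ± 0.987, 13.8 ± 0.914 and 8.16 ± 0.907 TPM in the same order. Pdgfrb and Pdgfb overlapped between samples within each group, so their order is not resolved, while the other neighbours in the order did not overlap. The 3 ligands together held 125.05 to 127.38 TPM in controls and 67.6 to 73.57 TPM in treated samples. The 2 receptors together held 40.32 to 45.43 TPM in controls and 24.0 to 27.77 TPM in treated samples.

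**Figure D3:**
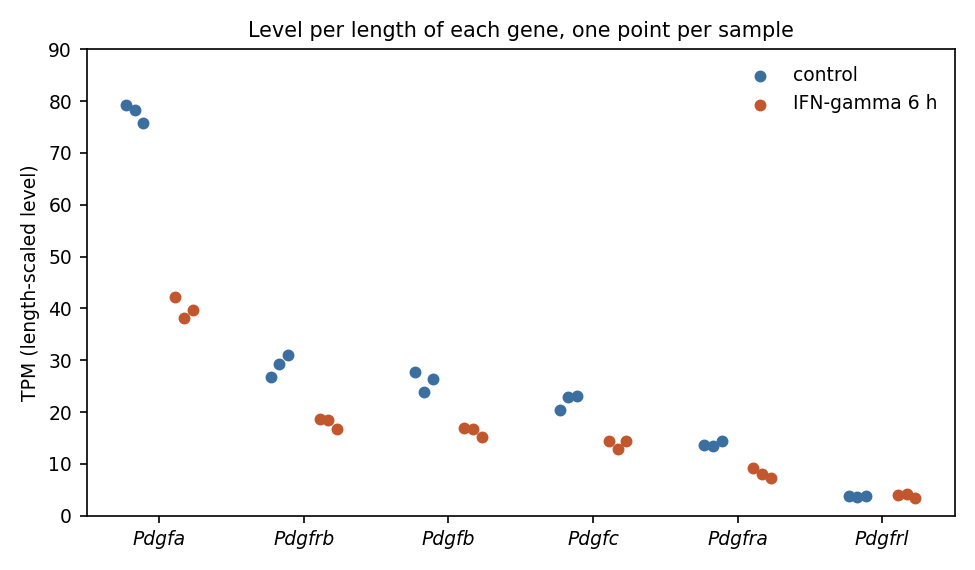
Length-scaled level (TPM, linear y axis from 0) of each PDGF member and Pdgfrl, one point per sample. Pdgfa is highest in both groups, at 75.71 to 79.24 TPM in controls and 38.11 to 42.25 TPM in treated samples, and Pdgfra is the lowest of the 5.

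The genes with the nearest profiles over the 6 samples were taken by the root-mean-square distance between centred log2 CPM values, among tested genes with a mean of at least 10 CPM. For Pdgfra they were Sorbs3 (distance 0.022), Smad7 (0.034) and Trim16 (0.035). Smad7, an inhibitor of TGF-beta signalling, went from 27.2 to 16.8 CPM. For Pdgfrb they were Rcl1 (0.042), Mdn1 (0.044) and Bace1 (0.044), and for Pdgfa Slc5a6 (0.051), Glis2 (0.053) and Lamb1 (0.056). Lamb1, a laminin chain of basement membranes, went from 360 to 199 CPM. For Pdgfb they were Slc7a5 (0.036), Iffo2 (0.037) and Ier2 (0.043), and for Pdgfc Tm4sf1 (0.029), Slc35c1 (0.029) and Rgmb (0.036). Members lay as near to each other as 0.071 for Pdgfra and Pdgfb and as far as 0.178 for Pdgfa and Pdgfc. All of these neighbours in profile fell, as their choice by likeness to fallen genes implies.

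Neighbouring coding genes gave few values. Beside Pdgfb, the chromatin gene Cbx7, 24722 bases away, had a log2 fold change of -0.15 (edgeR adjusted p = 0.130) and was past the threshold on total counts (adjusted p = 0.0279), with upper-quartile scaling (0.0364) and on the log2(TPM + 1) scale (0.0476). The ribosomal protein gene Rpl3, 53167 bases to the other side, rose by 0.18 (edgeR adjusted p = 0.00511), a call lost on the log2(TPM + 1) scale (log2 0.077, adjusted p = 0.249), when control replicate 4 was left out (0.0596) and on total counts (0.0537). Cbx7 also passed without control replicate 2 (0.0363) or treated replicate 1 (0.0444). Beside Pdgfc, the cathepsin gene Ctso, 718561 bases away, rose from 1.73 to 4.65 CPM. Csf1r, a receptor kinase of the same class 20505 bases from Pdgfrb, was too low to be tested. The coding genes beside Pdgfra, Gsx2 and Kit, had no values here.

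Genes that release, bind or take up PDGF were listed, 14 in all, of which 9 were tested. Of these 4 fell (44.4%) and 1 rose (11.1%), beside 18.1% and 19.9% of all tested genes, with a median log2 fold change of -0.04. Nrp1, a co-receptor that binds PDGF-B, fell from 132 ± 5.24 to 64.3 ± 0.326 CPM (log2 -1.04, edgeR adjusted p = 8.54e-13). Plat, the tissue plasminogen activator that cleaves PDGF-C, fell from 28.8 ± 1.12 to 13.1 ± 0.963 CPM (log2 -1.13), and Plau, the urokinase gene, from 26.9 to 14.2 CPM (log2 -0.93). The endocytic receptor gene Lrp1, a partner of the beta receptor, fell from 820 to 585 CPM (log2 -0.49). Furin, the protease that cuts PDGF-A and PDGF-B precursors, rose from 126 ± 3.71 to 208 ± 20.3 CPM (log2 0.73, edgeR adjusted p = 4.18e-09). Bmp1 had a log2 fold change of 0.07 (adjusted p = 0.434), which passed the threshold only without treated replicate 4 (log2 0.14, adjusted p = 0.0489), making 2 risen, and which was under 0 on total counts (-0.0052), on the log2(TPM + 1) scale (-0.048) and with a replicate block (-0.015).

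Of 33 genes that relay the signal from an active receptor, all tested, 9 rose (27.3%), 9 fell (27.3%) and 15 passed no threshold. Over all tested genes 19.9% rose and 18.1% fell, and the list's median log2 fold change was 0.06. The genes of smallest adjusted p went in both directions. Map2k1, which encodes the kinase MEK1, rose by 0.55 (122 to 179 CPM), the kinase gene Akt2 by 0.37 and Nras by 0.31. The protein kinase C gene Prkca fell by 0.35 on the log2 scale, Src by 0.36 and the PI3-kinase subunit gene Pik3r2 by 0.36. The list's median was under 0 on total counts (-0.01, with 6 risen and 12 fallen), on the log2(TPM + 1) scale (-0.06, with 4 risen) and without control replicate 3 (-0.0051). Map2k1 had counts that were not all whole.

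Of 17 genes that restrain receptor signalling, all tested, 6 rose (35.3%) and 5 fell (29.4%), with a median of -0.0033. The shares over all tested genes were 19.9% and 18.1%. The cytokine feedback genes Socs3 and Socs1 rose by 3.03 and 3.01, Socs3 from 22.9 to 187 CPM. Rasa1, a Ras GTPase-activating protein that docks on the beta receptor, fell from 218 ± 14.5 to 126 ± 6.90 CPM (log2 -0.78, edgeR adjusted p = 4.11e-10). The adaptor gene Sh2b3 (LNK) fell from 91.7 to 65.0 CPM (log2 -0.50) and the Ras pathway inhibitor Spry4 from 2.83 to 1.49 CPM (log2 -0.93). The receptor phosphatase gene Ptprj rose by 0.26, a call lost on the log2(TPM + 1) scale (adjusted p = 0.292). On total counts 3 genes of this list rose, and on the log2(TPM + 1) scale 2. Its median was above 0 with a replicate block (0.06), without control replicate 3 (0.0045) and without treated replicate 1 (0.03).

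Genes known to respond to PDGF in fibroblasts moved in both directions: 9 of 20 tested rose (45%) and 10 fell (50%), with a median log2 fold change of 0.0018. Of all tested genes 19.9% rose and 18.1% fell. Ccl2 and Cxcl1, first cloned as the PDGF-inducible genes JE and KC, rose from 323 to 884 CPM and from 110 to 296 CPM. Ccl7 rose from 119 to 399 CPM and Has2, a hyaluronan synthase, from 7.06 to 16.8 CPM. Egr3, an early growth response factor, fell from 10.5 ± 0.421 to 2.89 ± 0.407 CPM (log2 -1.86, edgeR adjusted p = 1.28e-10), and the growth factor gene Hbegf from 56.3 to 34.2 CPM (log2 -0.72). These chemokine genes also respond to inflammatory cytokines.

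**Figure D4:**
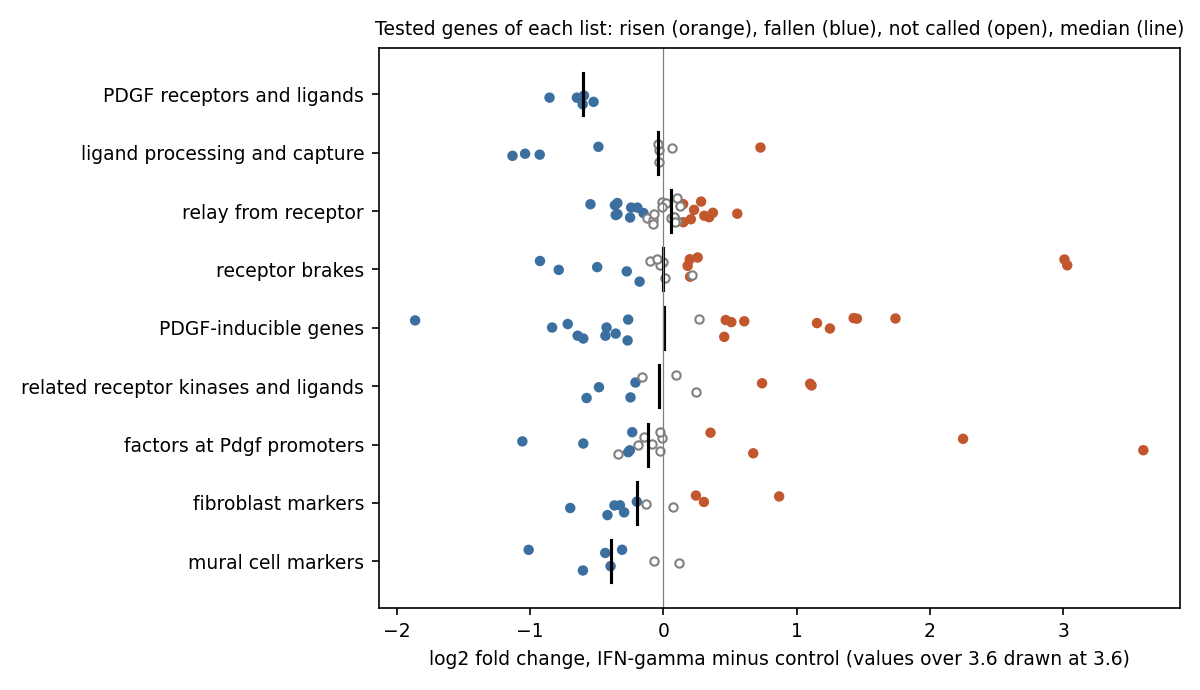
Log2 fold change (x axis, interferon-gamma minus control) of each tested gene, by list (y axis), with risen genes in orange, fallen genes in blue, genes past no threshold open and the list's median as a line. The PDGF receptors and ligands are the list with every tested gene fallen (median -0.61), and the relay list is split evenly, 9 risen and 9 fallen.

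Among receptor kinases of the same class, the VEGF receptors and the ligands of both, 3 of 10 tested genes rose (30%) and 4 fell (40%). Over all tested genes 19.9% rose and 18.1% fell, and this list's median log2 fold change was -0.03. Kitl, the ligand of Kit, rose from 42.0 to 70.3 CPM (log2 0.74), Vegfd from 10.1 to 21.7 CPM (1.10) and Flt3l from 1.52 to 3.30 CPM (1.11). Il34, a ligand of Csf1r, fell from 11.6 to 7.80 CPM (log2 -0.58), the VEGF receptor gene Flt1 from 17.0 to 12.2 CPM (-0.48) and Vegfa from 124 to 104 CPM (-0.25).

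Factors described at PDGF gene promoters were also measured. Of 16 tested, 4 rose (25%) and 5 fell (31.2%), beside 19.9% and 18.1% of all tested genes, with a median of -0.12. The count of falls ran from 3 to 7 over the alternatives: 3 with DESeq2, without control replicate 4 or without treated replicate 4, and 7 on total counts or with upper-quartile scaling. Wt1, a zinc-finger factor that binds GC-rich sites and has been studied at the PDGF-A promoter, had 1, 0 and 2 counts in controls and 237, 238 and 190 in treated samples. The ratio of depth-scaled totals was 236 (exact 95% binomial interval 80.4 to 1147, for counting error only). It rests on 3 control counts, and was 470 without control replicate 4 (84.1 to 18605) and 158 without control replicate 3 (53.7 to 766). Cebpd, a CCAAT/enhancer-binding protein, rose from 21.7 to 103 CPM (log2 2.25) and Cebpb from 45.7 to 58.4 CPM (0.35). Of the NF-Y subunits that bind CCAAT, Nfyb rose by 0.67 and Nfya fell by 0.25 on the log2 scale. Myc fell from 134 to 88.1 CPM (log2 -0.60). The part of these factors in the falls of the PDGF genes was not tested.

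The deposited annotation holds 3 gene sets of PDGF signalling, looked up after values were seen, and they differed in their counts. Without the 5 members the Reactome set had 37 tested genes, of which 16 fell and 4 rose, 43.2% and 10.8% beside 18.1% and 19.9% of all tested genes, and the median log2 fold change was -0.08. On total counts 20 fell and 2 rose, and 2 also rose with upper-quartile scaling and on the log2(TPM + 1) scale. The falls included 7 of its 9 tested collagen genes, among them Col3a1 (340 to 254 CPM), Col4a1 (632 to 504 CPM) and Col6a1 (178 to 144 CPM), singled out after their values were seen. Of its 28 other tested genes 9 fell and 4 rose, with a median of -0.0052. Without members, the Gene Ontology set for the PDGF receptor signalling pathway had 31 tested genes, of which 12 fell and 12 rose (38.7% each), with a median of -0.014. Of these 7 rose on total counts or without control replicate 4, and 5 on the log2(TPM + 1) scale. The Gene Ontology set for the cellular response to PDGF had 27 tested genes without members, of which 8 fell (29.6%) and 5 rose (18.5%), with a median of -0.03.

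Markers of mural cells and fibroblasts, which usually carry these receptors, were counted beside the 18.1% of all tested genes that fell and the 19.9% that rose. Of 12 mural cell markers (pericyte and smooth muscle genes), 7 were tested, 5 fell (71.4%) and 0 rose, with a median log2 fold change of -0.40, and 3 fell without control replicate 2 or with a replicate block. Tagln, a smooth muscle actin-binding protein, fell from 28.5 to 23.0 CPM and the aminopeptidase gene Anpep from 8.45 to 6.24 CPM. Acta2, smooth muscle actin and the most abundant, was at 507 ± 31.9 and 482 ± 15.7 CPM (log2 -0.07, edgeR adjusted p = 0.319), with a call on total counts (-0.14, adjusted p = 0.0293) and on the log2(TPM + 1) scale (-0.19, 0.00461). Named after its values were seen, the pericyte proteoglycan gene Cspg4 fell from 4.67 to 2.31 CPM (log2 -1.01). The contractile genes Cnn1 and Myh11 were too low to be tested, at no more than 0.63 and 0.06 TPM in any sample. The list's summed level was 623.4 to 643.31 TPM in controls and 532.56 to 555.79 TPM in treated samples. Acta2 alone held 575.26 to 595.86 TPM in controls and 497.07 to 521.52 TPM in treated samples, so the sum mainly reflects that gene. TPM values carry no TMM factor. Over all tested genes the median log2 fold change was -0.09 on the log2(TPM + 1) scale, beside 0.01 with edgeR. Summed TPM compared between groups, here and above, include that shift.

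Of 15 fibroblast markers, 11 were tested, 6 fell (54.5%) and 3 rose (27.3%), with a median of -0.20. Col1a1 fell from 1656 to 1321 CPM (log2 -0.33), Vim rose from 2386 to 2946 CPM (0.30) and S100a4 was at 1245 and 1310 CPM (0.07, edgeR adjusted p = 0.404). The sign of S100a4 turned without treated replicate 4 (-0.0039) and on the log2(TPM + 1) scale (-0.032). The summed level of the fibroblast list overlapped, at 12490 to 13292 TPM in controls and 12217 to 13493 TPM in treated samples. S100a4 alone held 8788 to 9753 TPM in controls and 8418 to 9885 TPM in treated samples, so the sum mainly reflects that gene. No marker with values in either list was at 0 in all samples. The part of the mural and fibroblast markers in the falls of the PDGF genes was not tested.

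Endothelial cells and platelets, which make PDGF-B, left little trace. Of 8 endothelial markers 1 was tested, Egfl7, at 2.87 and 2.57 CPM (edgeR adjusted p = 0.520), and the endothelial list summed to 5.14 to 5.92 TPM in controls and 4.19 to 5 TPM in treated samples. Of 11 leukocyte and platelet markers 3 were tested and none passed the threshold with edgeR: Cd14 (21.7 and 19.3 CPM, adjusted p = 0.0961), Itga2b (3.13 and 2.91 CPM) and Cd68 (1.72 and 1.59 CPM). At an unadjusted p under 0.05 there was 1, Cd14, none passed with DESeq2, and Cd14 passed on total counts (log2 -0.24, adjusted p = 0.0177), with upper-quartile scaling (0.0272) and on the log2(TPM + 1) scale (0.0133). The platelet gene Pf4 was not analysed here.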

How the data were processed

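RNA of 6 IEC 4.1 samples was sequenced on DNBSEQ, per the labels' protocols. The submitters' processing notes name HISAT, HISAT2, mm10 and GRCm38.p6 without roles, and what counted the reads is not stated in them or in the labels. Estimated counts, deposited per gene and partly not whole (6.8% to 7.37% of genes), were rounded. TPM values, deposited beside them per the file headers, were used for levels between genes, and FPKM values, deposited likewise, for 1 alternative. 

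Counts were tested with edgeR 4.0.16 in R 4.3.3: filterByExpr (minimum count 10), TMM scaling, glmQLFit (robust) and glmQLFTest, with Benjamini-Hochberg adjustment over all 11423 tested genes and a threshold of 0.05. CPM are per effective library size. Standard errors come from log2 CPM with a prior count of 2, which draws low values together. The edgeR script was tested on simulated data. Alternatives were DESeq2 1.42.0, limma 3.58.1 (voom, and trend on log2(TPM + 1)), 3 other scalings, 2 other filters, robust=FALSE, a replicate block and each library left out. Python 3.11.15, scipy 1.17.1 and matplotlib 3.10.9 served for tables and figures.

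The members, lists and naming rule were chosen with earlier results of these data known. The rule names the members, Pdgfd and Pdgfrl, up to 6 genes of smallest adjusted p per pathway list, the 3 most abundant tested genes per marker list, the 3 nearest profiles per called member, the nearest gene on each side (taken among coding genes) and the interferon-gamma check genes, of which 1 is not reported here. Promoter sequences and coordinates are RefSeq's.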

Additional observations from a re-analysis of the deposited data

How the results depend on the processing

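All 5 PDGF members stayed fallen and past the threshold under each of the 16 alternatives. The log2 fold change ran from -0.75 to -0.59 for Pdgfra, -0.67 to -0.55 for Pdgfrb, -0.94 to -0.81 for Pdgfa, -0.68 to -0.55 for Pdgfb and -0.64 to -0.50 for Pdgfc, and the highest adjusted p of any was 2.23e-05. The Pdgfra to Pdgfrb ratio kept its sign, from -0.12 to -0.02, as did the Pdgfa to Pdgfc ratio, from -0.34 to -0.22, and neither design can pass the threshold. Counts over all genes depended on scaling: 3124 genes fell on total counts, and on the log2(TPM + 1) scale 1294 rose and 3229 fell, while leaving out 1 library gave 1851 to 2187 risen and 1710 to 2025 fallen. TMM factors ran from 1.016 to 1.033 in controls and from 0.9717 to 0.9816 in treated samples. The median log2 fold change over all tested genes was 0.01 with these factors and -0.06 on total counts. What made the factors differ between the groups was not tested.

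Bmp1 changed sign on the log2(TPM + 1) scale (-0.048), on total counts (-0.0052) and with the replicate block (-0.015). S100a4 changed sign on the log2(TPM + 1) scale (-0.032) and ran from -0.0039 to 0.13 with a library left out, and Cd68 from -0.26 to 0.0071. Their main values passed no threshold. Replicate numbers 2 and 4 occur in both groups, but no label says that they pair the samples. Deviations from the group means correlated at 0.128 for number 2 and -0.0899 for number 4 across genes. Both lie within the range of differently numbered pairs, -0.146 to 0.161. With the replicate block the 5 members stayed called, Pdgfra at -0.75 and Pdgfa at -0.88, and 2133 genes rose and 1793 fell. Control replicate 3 and treated replicate 1 have no partner of the same number. The blocked fold changes therefore rest on numbers 2 and 4 alone, so this alternative is a weak check. At 403 counts or more per library the members lay well above the low-count filter, whereas Pdgfd and the epithelial markers had too few counts to be tested.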
